A study of Mus musculus with 25 samples.

Results

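The genes described here are 10 genes of blood vessel endothelium, the cell layer that lines arteries, capillaries and veins: the receptor genes Kdr, Flt1, Tek and Tie1, the junction and adhesion genes Cdh5, Pecam1 and Esam, the surface glycoprotein gene Emcn, the co-receptor gene Eng and the clotting factor gene Vwf. The list was set by gene name, with earlier results of these data known, and makes up 10 of the 19937 genes measured. Each was measured by 1 probe set, no filter on low values was used, and all 10 were tested. Expression was measured on 25 single-colour Affymetrix arrays of whole-transcript RNA from mouse mammary tissue that was homogenized frozen and whole. The values are log2 signals, so a difference of 1 is a doubling, and levels of different genes are not compared because their probes differ.

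The arrays carry 4 labels. The first group is 10 tumors of K8-creERT2/PIK3CA H1047R mice on a mixed FVB/CD1 background. The second is 10 tumors of Lgr5-creERT2/PIK3CA H1047R mice on a mixed FVB/C57/BL6 background. The glands are 2 mammary glands of K8-creERT2 control mice on the FVB/CD1 background and 3 of Lgr5-creERT2 control mice on the FVB/C57/BL6 background, for which the labels name no PIK3CA H1047R allele. In these lines a Cre recombinase that needs tamoxifen is driven by the promoter of keratin 8, a luminal epithelial keratin, or of Lgr5, a receptor of epithelial progenitor cells. Tamoxifen, given to adults at 7 to 8 weeks of age, switched on PIK3CA H1047R, an activated catalytic subunit of PI3-kinase, in the cells in which the Cre is active. Tumors were collected once they had developed. The labels give neither the age at collection nor a separate treatment for the control mice. Line and background go together, so the effects of these factors cannot be told apart between lines. Whether each tumor is from an animal of its own is not in the labels. The p-values below thus reflect the spread of these samples alone, and that spread may be technical.

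Endothelial cells form and keep vessels through a few receptor systems. Vascular endothelial growth factors act through KDR (VEGFR2), the main signalling receptor, while FLT1 (VEGFR1) binds the same ligands with high affinity and also exists as a soluble form that sequesters them. Angiopoietins act through TEK (TIE2), which steadies vessels, together with its relative TIE1. VE-cadherin (Cdh5), PECAM1 and ESAM hold the cells together, and von Willebrand factor is stored in them and in platelets. Vessels run through tumors, mammary stroma and fat alike.

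Markers of other tissues went against the labels of several arrays, so every group below is named by its label. The mean of 17 adipocyte genes was 12.41 to 12.58 in Lgr5 tumors 2, 6, 7, 8 and 9, 9.61 to 10.99 in the other Lgr5 tumors and 8.27 to 11.25 in the K8 tumors, against 8.08 and 8.83 in the K8 glands and 8.00 to 9.72 in the Lgr5 glands, although mammary gland is embedded in fat. The mean of 21 genes of squamous (skin-like) differentiation was 9.65 for K8 tumor 9 and 9.84 for Lgr5 tumor 10, against 9.86 and 10.16 in the K8 glands and 8.58 to 10.53 in the Lgr5 glands. In the other K8 tumors it was 6.38 to 7.16. Lgr5 tumor 4 had 8.18, below every gland, and the remaining Lgr5 tumors had 5.99 to 6.62. In those 5 adipocyte-high arrays the mean of 16 epithelial genes was 8.40 to 9.02, below the 9.91 or more of every K8 tumor. The median signal of an array lay between 6.34 and 6.43. The mean of 15 cell cycle genes, which are active in dividing cells, was 8.27 to 9.17 for K8 tumors, 6.64 to 7.73 for the 5 adipocyte-high arrays and 7.98 to 9.26 for the remaining Lgr5 tumors, against 9.41 and 9.69 for K8 glands and 9.13 to 9.20 for Lgr5 glands. Low adipocyte, high squamous and high cell cycle means in most arrays labelled gland also go against what a mammary gland would hold, so the doubt about labels covers the glands as well as these 7 tumor arrays. Whether arrays were exchanged between labels was not tested, and each direction given here is one between sets of arrays as labelled. Results are given with and without these 7 arrays, and no array was moved to another group.

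Of the 10 endothelial genes 3, Tie1, Eng and Vwf, rose in both lines in arrays labelled tumor against those labelled gland. In K8 tumors 3 of the 10 genes (Tie1, Eng and Vwf) rose against K8 glands and 0 fell, while 3.42% of all genes rose and 9.1% changed in either direction (limma, adjusted p under 0.05 over all 19937 genes). In Lgr5 tumors 8 of the 10, all but Flt1 and Emcn, rose against Lgr5 glands and 0 fell, while 5.28% of all genes rose and 15.9% changed. The median log2 difference of the 10 genes was 1.04 in the K8 line and 0.96 in the Lgr5 line, against -0.01 over all genes in each. In whole tissue more endothelial cells and more RNA of these genes per cell cannot be told apart.

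The number of called genes moved with single arrays and with their weights. With array weights in limma it was 9 of 10 in each line, where 13.9% of all genes rose in the K8 line and 17.4% in the Lgr5 line. Without K8 tumor 9 it was 9 of 10 in the K8 line, where 6.97% of all genes rose. Without Lgr5 tumor 10, which enters that fit only through the shared spread, it was 7, where 4.8% of all genes rose. Without K8 gland 1 or K8 gland 2 it was 0, where 0.01% and 0.0552% of all genes rose. In the Lgr5 line it was 1 without Lgr5 gland 1, where 0.181% of all genes rose, 2 without Lgr5 gland 2 (2.92%) and 2 without Lgr5 gland 3 (0.943%). Without Lgr5 tumors 2, 6, 7, 8 and 9 it was 0 of 10 in the Lgr5 line, where 0% of all genes rose, and the median difference was 0.68. Without all 7 tumor arrays named above it was 9 of 10 in each line, all but Flt1, where 11.4% of all genes rose in the K8 line and 7.14% in the Lgr5 line.

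**Figure D1:**
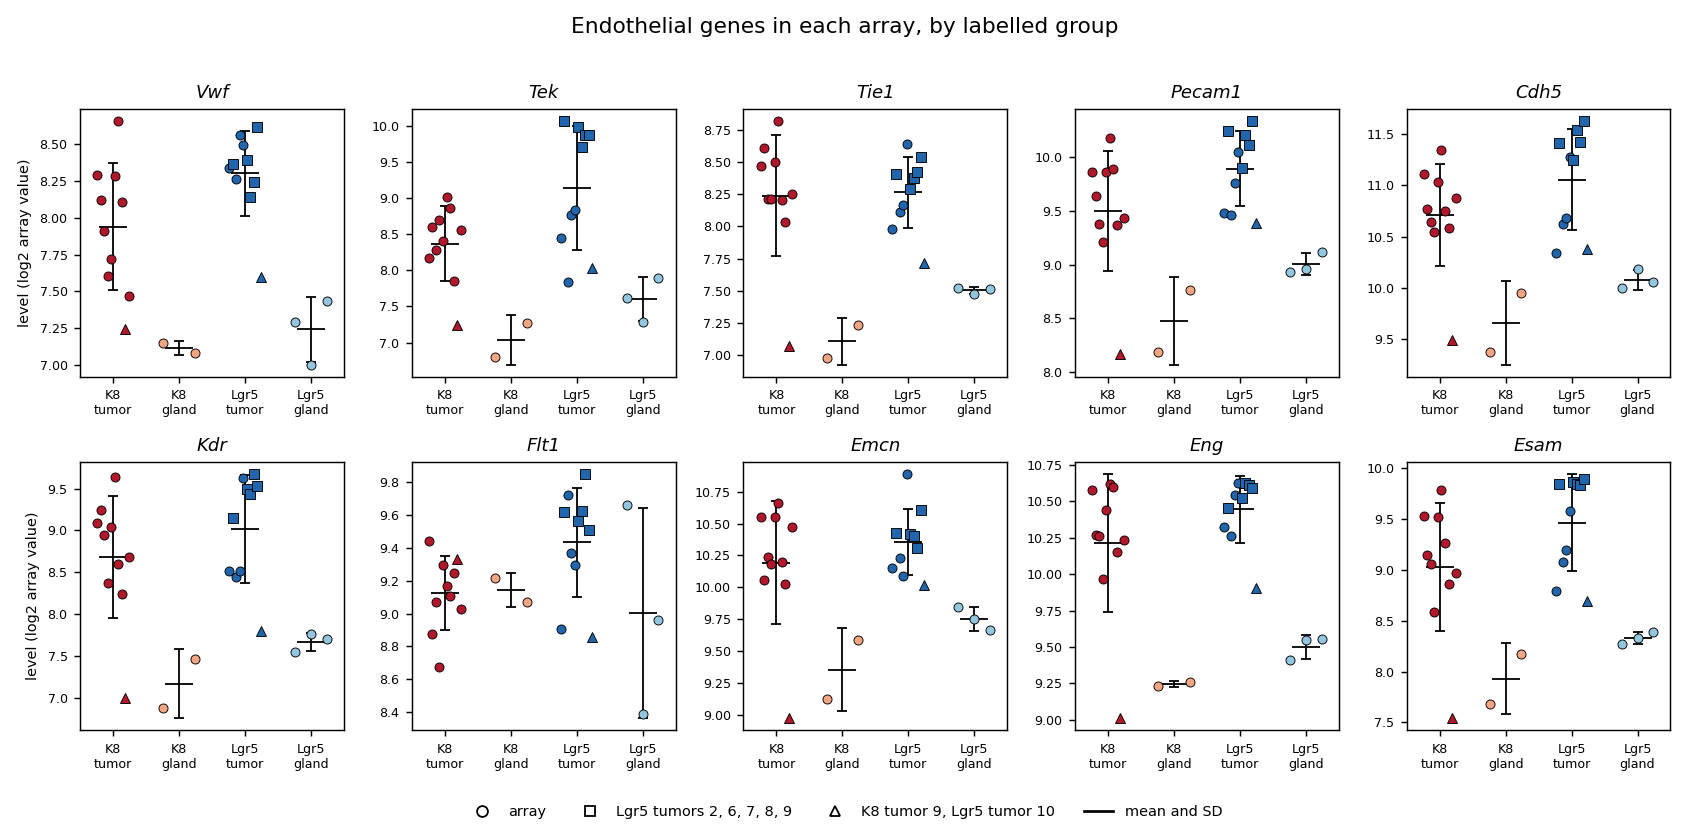
Log2 signal (vertical axes, a separate scale for each gene) of the 10 endothelial genes in each of the 25 arrays, by labelled group, 1 point an array with the group mean and its SD; the 7 tumor arrays whose tissue markers went against their labels are marked. For 9 of the 10 genes, all but Flt1, K8 tumor 9 is the lowest K8 tumor, and the Lgr5 tumors with high adipocyte markers sit above every other tumor for Tek and Esam.

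Kdr and Flt1 are the paired receptors of the VEGF system, and Tek and Tie1 those of the angiopoietin system. As a description, the 250 bases before the start of each of these 4 genes are given from RefSeq (build GRCm38.p6), read 5′ to 3′ on the strand of the gene. Of the 10 genes, 6 (Tek, Tie1, Kdr, Flt1, Emcn and Eng) were matched there. Capitals mark the letters GGAA or TTCC, the core bound by ETS factors, a family that includes the endothelial regulators ERG and FLI1.
Kdr promoter, chr5:75978456-75978705, minus strand: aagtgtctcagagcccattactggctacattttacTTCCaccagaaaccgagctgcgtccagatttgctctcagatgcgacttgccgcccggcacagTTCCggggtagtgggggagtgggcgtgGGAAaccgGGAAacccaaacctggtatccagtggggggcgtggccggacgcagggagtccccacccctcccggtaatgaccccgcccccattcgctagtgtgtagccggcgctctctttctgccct
Flt1 promoter, chr5:147726012-147726261, minus strand: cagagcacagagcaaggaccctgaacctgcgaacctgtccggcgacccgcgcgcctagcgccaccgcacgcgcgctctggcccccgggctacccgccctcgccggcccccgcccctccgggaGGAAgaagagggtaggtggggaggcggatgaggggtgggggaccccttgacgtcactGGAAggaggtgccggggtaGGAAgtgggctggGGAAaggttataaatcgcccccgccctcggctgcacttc
Tek promoter, chr4:94739039-94739288, plus strand: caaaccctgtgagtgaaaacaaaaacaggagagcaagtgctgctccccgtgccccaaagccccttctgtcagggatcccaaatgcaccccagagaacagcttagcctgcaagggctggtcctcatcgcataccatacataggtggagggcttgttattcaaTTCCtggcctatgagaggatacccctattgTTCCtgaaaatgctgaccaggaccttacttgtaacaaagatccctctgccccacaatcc
Tie1 promoter, chr4:118489850-118490099, minus strand: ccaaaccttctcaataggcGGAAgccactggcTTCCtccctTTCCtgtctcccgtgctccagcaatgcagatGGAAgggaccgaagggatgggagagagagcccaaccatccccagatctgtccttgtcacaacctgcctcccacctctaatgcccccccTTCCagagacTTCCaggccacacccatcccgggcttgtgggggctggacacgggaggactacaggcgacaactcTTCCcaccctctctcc

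The core, searched as GGAA on both strands, occurred 4 times in the Kdr promoter, 4 in Flt1, 2 in Tek, 7 in Tie1, 4 in Emcn and 3 in Eng. It is a short word: 93.4% of 27025 mouse promoters of this length hold it, with a median of 3 matches. Among these 6 promoters 0 hold the longer ETS form CCGGAAGT, which contains the core and occurs in 2.93% of promoters, 0 hold the GATA form AGATAA (10.3%) and 0 hold the forkhead form TGTTTAC (3.09%). These are descriptions of letters in a window and not of bound sites.

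Kdr, the main signalling VEGF receptor, had the highest difference of the 10 genes in the K8 line. Its level was 6.99, 8.81 and 9.63 (lowest, median and highest) in the 10 K8 tumors, against 6.88 and 7.46 in the K8 glands. The ranges overlapped through K8 tumor 9 alone, since the next lowest K8 tumor had 8.24. The difference was 1.52 ± 0.48 (SE), a fold of 2.86, and missed the threshold (limma adjusted p = 0.0513). Kdr was at 7.80, 9.29 and 9.67 in the Lgr5 tumors, against 7.55, 7.76 and 7.70 in the Lgr5 glands. Here the groups did not overlap, and Kdr rose by 1.35 ± 0.41 (limma adjusted p = 0.0316).

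Flt1, the high-affinity VEGF receptor that can act as a decoy, showed no separation of tumors from glands. Its level was 8.67, 9.14 and 9.44 in the K8 tumors, against 9.22 and 9.07 in the K8 glands, so both glands lay inside the tumor range. The difference was -0.02 ± 0.25 (limma adjusted p = 0.981). K8 tumor 9, the lowest K8 tumor for every other gene of the 10, had 9.33 for Flt1 and was among the highest. Flt1 was at 8.86, 9.54 and 9.85 in the Lgr5 tumors, against 9.66, 8.39 and 8.96 in the Lgr5 glands, with Lgr5 gland 1 above the tumor median. The difference of 0.43 ± 0.21 did not pass (limma adjusted p = 0.163).

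Tek, the angiopoietin receptor, had the highest difference of the 10 genes in the Lgr5 line. Its level was 7.84, 9.27 and 10.07 in the Lgr5 tumors, against 7.62, 7.29 and 7.90 in the Lgr5 glands. The Lgr5 tumors split widely: Lgr5 tumors 2, 6, 7, 8 and 9 had 9.71 to 10.07, the others 7.84 to 8.84, and Lgr5 tumor 3 lay below Lgr5 gland 3. Tek rose by 1.54 ± 0.43, a fold of 2.91 (limma adjusted p = 0.0209). In the K8 line Tek was at 7.25, 8.48 and 9.02 in the tumors, against 6.80 and 7.28 in the glands. K8 tumor 9 lay between the glands, and the difference of 1.33 ± 0.50 did not pass (limma adjusted p = 0.0937).

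Tie1, which encodes the close relative and partner of TEK, had the smallest adjusted p of the 10 genes in the K8 line. Its level was 7.07, 8.23 and 8.82 in the K8 tumors, against 6.98 and 7.24 in the K8 glands. All K8 tumors but number 9 had at least 8.03, above both glands, and Tie1 rose by 1.13 ± 0.27 (limma adjusted p = 0.0182). Among Lgr5 arrays Tie1 was at 7.72, 8.33 and 8.64 in the tumors, against 7.52, 7.47 and 7.51 in the glands. The groups did not overlap, and Tie1 rose by 0.76 ± 0.23 (limma adjusted p = 0.0302). For Tie1 1 of the adipocyte-high arrays was among the 5 highest of all 20 tumors, and for Tek all 5 were.

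The junction and adhesion genes Cdh5, Pecam1 and Esam rose in the Lgr5 line, and 0 of the 3 passed in the K8 line (limma; all 3 had an unadjusted p under 0.05). Cdh5, which encodes VE-cadherin of the junctions between endothelial cells, was at 9.50, 10.76 and 11.34 in the K8 tumors, against 9.38 and 9.95 in the K8 glands, a difference of 1.05 ± 0.35 that did not pass (limma adjusted p = 0.0621). Among Lgr5 arrays Cdh5 was at 10.34, 11.26 and 11.62 in the tumors, against 10.00, 10.19 and 10.06 in the glands. It rose by 0.97 ± 0.30 (limma adjusted p = 0.0322), with no overlap. That call was lost without any single gland of the line and without Lgr5 tumor 7. In the K8 line the overlap came from K8 tumor 9, and the other K8 tumors had at least 10.55.

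Pecam1, an adhesion molecule of endothelial junctions that platelets and leukocytes also carry, was at 8.17, 9.53 and 10.17 in the K8 tumors, against 8.19 and 8.76 in the K8 glands. The difference of 1.02 ± 0.33 missed the threshold (limma adjusted p = 0.0541), and K8 tumor 9 was below both glands. Pecam1 was at 9.39, 9.97 and 10.34 in the Lgr5 tumors, against 8.93, 8.96 and 9.12 in the Lgr5 glands. It rose by 0.89 ± 0.28 (limma adjusted p = 0.0362), and the groups did not overlap. That call was lost without any single gland of the line and without Lgr5 tumor 2, 6, 7, 8 or 9.

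Esam, an adhesion molecule of endothelial tight junctions, was at 7.54, 9.10 and 9.79 in the K8 tumors, against 7.68 and 8.18 in the K8 glands. The difference of 1.10 ± 0.39 did not pass (limma adjusted p = 0.0801). Esam was at 8.70, 9.71 and 9.89 in the Lgr5 tumors, against 8.27, 8.33 and 8.39 in the Lgr5 glands, and it rose by 1.13 ± 0.33 (limma adjusted p = 0.0278). The 5 adipocyte-high Lgr5 tumors lay close together, at 9.83 to 9.89, and above every other tumor.

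Among the surface proteins, Eng rose in both lines. Eng encodes endoglin, a co-receptor for TGF-beta family ligands on endothelium. It was at 9.01, 10.27 and 10.61 in the K8 tumors, against 9.23 and 9.26 in the K8 glands, and rose by 0.97 ± 0.26 (limma adjusted p = 0.0264) although K8 tumor 9 lay below both glands. Among Lgr5 arrays Eng was at 9.90, 10.53 and 10.63 in the tumors, against 9.41, 9.55 and 9.55 in the glands, and rose by 0.94 ± 0.22 (limma adjusted p = 0.0121) with no overlap.

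Emcn, which encodes the sialomucin endomucin of capillaries and veins, passed in neither line. It was at 8.98, 10.22 and 10.66 in the K8 tumors, against 9.13 and 9.59 in the K8 glands, a difference of 0.84 ± 0.28 (limma adjusted p = 0.0583). Among Lgr5 arrays Emcn was at 10.01, 10.36 and 10.89 in the tumors, against 9.85, 9.75 and 9.66 in the glands, a difference of 0.60 ± 0.23 (limma adjusted p = 0.0813). The Lgr5 groups nevertheless did not overlap, the lowest tumor being Lgr5 tumor 10.

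Vwf, the clotting factor stored in endothelial granules, was the only gene of the 10 without overlap in the K8 line. It was at 7.24, 8.01 and 8.66 in the K8 tumors, against 7.15 and 7.08 in the K8 glands, and rose by 0.82 ± 0.26 at the edge of the threshold (limma adjusted p = 0.0499). That call held in 11 of 38 settings tried. Its level was 7.60, 8.35 and 8.62 in the Lgr5 tumors, against 7.29, 7.00 and 7.44 in the Lgr5 glands. Vwf rose there by 1.06 ± 0.22 (limma adjusted p = 0.00938), the smallest adjusted p of the 10 genes, and held in 36 of 38 settings.

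Counted without a model, every K8 tumor lay above both K8 glands for 1 of the 10 genes, where 7.23% of all genes did so. Without K8 tumor 9, a count added after seeing the data, this was 9 of 10 (all but Flt1), where 14.5% of all genes did so. Every Lgr5 tumor lay above all 3 Lgr5 glands for 8 of the 10 genes (all but Tek and Flt1), where 2.2% of all genes did so.

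**Figure D2:**
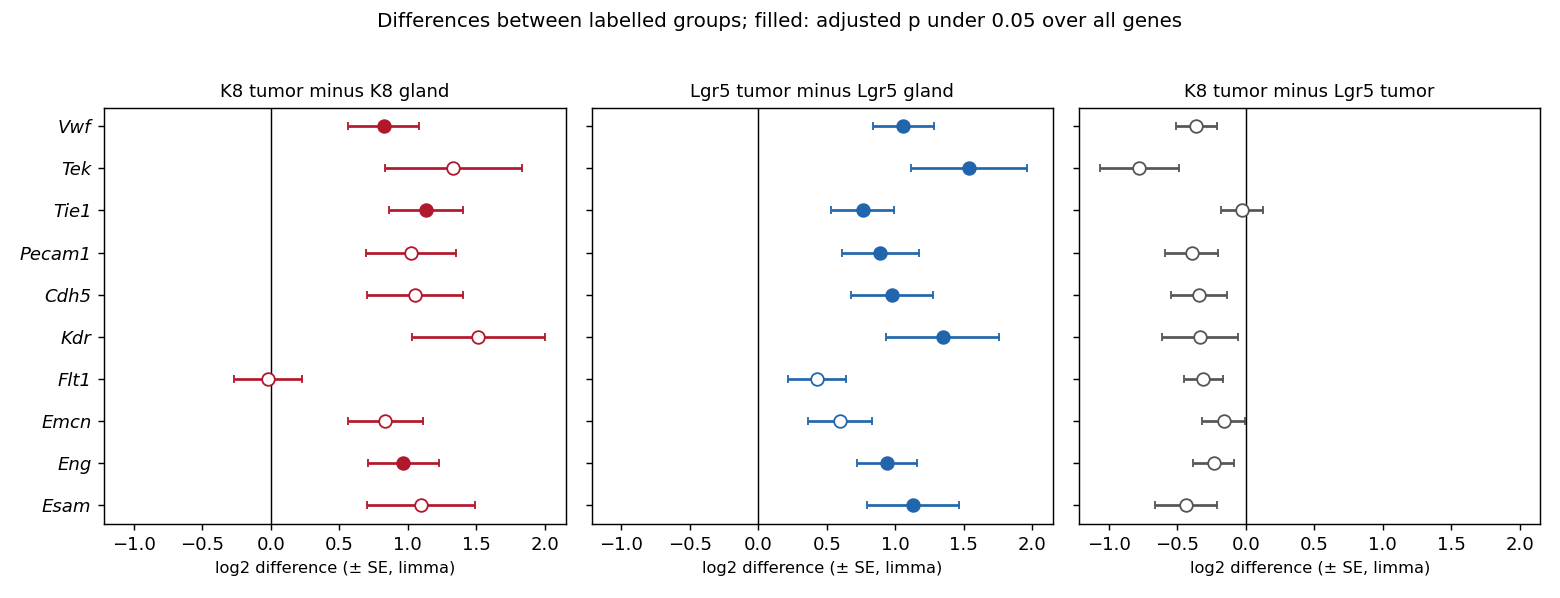
Log2 differences with SE (horizontal axes) of the 10 endothelial genes for K8 tumors against K8 glands, Lgr5 tumors against Lgr5 glands and K8 tumors against Lgr5 tumors, with filled points where limma's adjusted p over all genes was under 0.05. Flt1 lies at -0.02 in the K8 line, where the other 9 genes lie between 0.82 and 1.52, and all 10 genes lie below 0 between the tumor groups with 0 filled points.

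The next comparison asks whether tumors of the lines differ. All 10 genes had lower means in K8 tumors than in Lgr5 tumors, from -0.03 ± 0.16 for Tie1 to -0.78 ± 0.29 for Tek, with a median of -0.34 against 0.01 over all genes. Of the 10, 0 passed (limma), where 21.3% of all genes did, and 3 had an unadjusted p under 0.05. With array weights 5 of the 10 fell (Tek, Flt1, Vwf, Pecam1 and Esam), where 17.7% of all genes fell. Tek came nearest (limma adjusted p = 0.0575), followed by Vwf at -0.36 ± 0.15 (limma adjusted p = 0.0885) and Flt1 at -0.31 ± 0.14 (limma adjusted p = 0.125). Without Lgr5 tumor 10 the count was 3, namely Tek, Vwf and Flt1, where 12.1% of all genes fell. Without K8 tumor 7 it was 2 (Tek and Vwf), where 10.2% fell. Without K8 tumor 6, Lgr5 tumor 1 or Lgr5 tumor 3 it was 1 (Tek), where 7.71%, 10.3% and 12% of all genes fell.

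For most of the 10 genes, but not clearly for Vwf, the lower means in K8 tumors went with the adipocyte-high Lgr5 tumors. Without Lgr5 tumors 2, 6, 7, 8 and 9 the median difference of the 10 genes between the tumor groups was -0.06, with a range of -0.31 to 0.12, and 0% of all genes passed. Without all 7 arrays it was 0.0047, with a range of -0.40 to 0.14. With the adipocyte mean as a covariate in the fit it was 0.07, with a range of -0.11 to 0.24. Vwf was at -0.31 ± 0.20 without the 5 arrays, against -0.36 ± 0.15 with them, and at -0.0016 with the covariate. Its mean was 8.35 in those 5 arrays and 8.25 in the other Lgr5 tumors. The part of fat in these values was not tested beyond this.

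Between the glands 0 of the 10 genes passed (limma), where 0% of all genes did, and 0 of 10 passed in the test of whether the tumor-gland difference itself differed between the lines, where 0% of all genes did. The K8 gland minus Lgr5 gland differences ran from -0.57 to 0.14 with a median of -0.40. The difference of differences, K8 minus Lgr5, ran from -0.45 for Flt1 to 0.37 for Tie1 with a median of 0.05. With 2 and 3 glands the precision of these comparisons is low.

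Most of the 10 genes varied together from tumor to tumor. The mean of the 10 was 9.01 to 9.75 in the K8 tumors apart from number 9, which had 8.11, and 8.84 to 9.91 in the Lgr5 tumors, against 8.06 and 8.39 in the K8 glands and 8.47 to 8.63 in the Lgr5 glands. K8 tumor 6 was the highest K8 tumor for 8 of the 10 genes, and Lgr5 tumor 10 the lowest Lgr5 tumor for 8. Pearson's r of Pecam1 with the mean of the other 9 genes was 0.99 across the 10 K8 tumors (0.96 without K8 tumor 9) and 0.94 across the 10 Lgr5 tumors, and r of Esam was 0.99 (0.96) and 0.97. For Flt1 r was -0.09 across the K8 tumors, 0.43 without K8 tumor 9, and 0.66 across the Lgr5 tumors. For Vwf it was 0.65 (0.40) and 0.55, and for Tek 0.76 (0.33) and 0.83. These are descriptions over arrays that share tissue makeup, and the values carry no test.

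**Figure D3:**
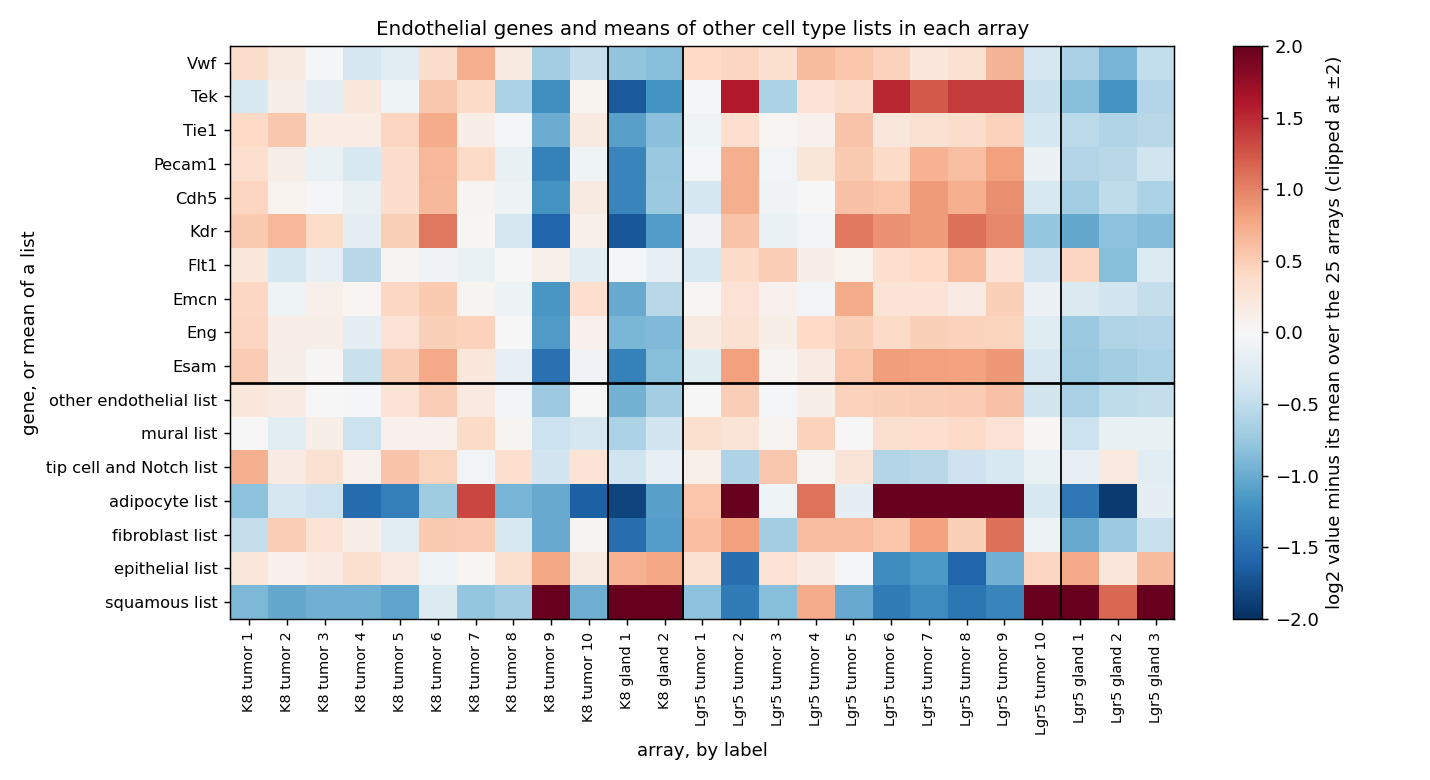
Endothelial genes and the means of other cell type lists (rows) in each of the 25 arrays (columns, by labelled group), coloured by log2 signal relative to the mean of the row. K8 tumor 9 and Lgr5 tumor 10 show high squamous values like most arrays labelled gland. The mean of the 10 endothelial genes is 8.11 in K8 tumor 9, within the range of the glands. In Lgr5 tumor 10 it is 8.84, the lowest of the Lgr5 tumors but above every gland (at most 8.63). Lgr5 tumors 2, 6, 7, 8 and 9 show high adipocyte, Tek and Esam values.

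The genes outside the 10 whose levels were most like the mean of the 10 were ranked by the smaller of their r across the 10 K8 tumors and across the 10 Lgr5 tumors. Adgrl4, an adhesion receptor first described in endothelium as ELTD1, came first with a smaller r of 0.98, followed by Cd300lg, Ptprb, which encodes the phosphatase VE-PTP that acts on TEK and VE-cadherin, and Cyyr1, with 0.97, 0.96 and 0.96. Prex2, Adgrf5, Mmrn2, Heph, Pde2a and Rapgef2 completed the first 10, the last with 0.94. Without K8 tumor 9 the K8 values of Adgrl4, Cyyr1 and Ptprb were 0.96, 0.95 and 0.91, and the lowest were 0.76 for Mmrn2, 0.81 for Heph, 0.83 for Rapgef2 and 0.88 for Prex2. In the tumor-gland tests all 10 rose in the Lgr5 line, from 0.52 for Rapgef2 to 1.98 for Cyyr1, where 5.28% of all genes rose. In the K8 line 3 (Cyyr1, Ptprb and Mmrn2) rose, where 3.42% of all genes did. These genes were picked for their likeness to the endothelial genes in the same tumors, so the counts are not separate evidence. Without the 5 adipocyte-high arrays 0% of all genes rose in the Lgr5 line.

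Other genes of blood vessel endothelium were called in 1 direction against glands. Of 25 tested, 11 rose and 0 fell in K8 tumors against K8 glands (median difference 0.98), and 13 rose and 0 fell in Lgr5 tumors against Lgr5 glands (median 0.76). Over all genes 3.42% rose and 5.69% fell in the K8 line, and 5.28% rose and 10.6% fell in the Lgr5 line. The same shares apply to the lists that follow. Cd93, a lectin-like receptor of endothelium, rose by 1.34 ± 0.32 in the K8 line (limma adjusted p = 0.0172), and Calcrl, the adrenomedullin receptor, by 1.25 ± 0.29 (limma adjusted p = 0.0165). In the Lgr5 line Ptprb rose by 1.74 ± 0.37 (limma adjusted p = 0.00969) and Ramp2, the partner of Calcrl, by 1.46 ± 0.38 (limma adjusted p = 0.0178). Without all 7 arrays 19 rose in the K8 line, where 11.4% of all genes rose, and 11 in the Lgr5 line, where 7.14% did. Without the 5 adipocyte-high arrays 13 and 0 rose, where 4.73% and 0% of all genes did. With 0% in the Lgr5 line, no rise there in any list that follows held without those 5 arrays. Leaving out either K8 gland left 0 called in the K8 line, for these genes and for every other list of endothelial genes that follows. Leaving out another single array left 6 to 12 of the 25. Without Lgr5 gland 1, 2 or 3, the Lgr5 line had 0, 5 or 1 of the 25, where 0.181%, 2.92% and 0.943% of all genes rose. Rises in the Lgr5 line in the lists that follow are subject to the same limit.

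Between the tumor groups 0 of these 25 were higher and 3 lower in K8 tumors, where 12.3% of all genes were higher and 9% lower. Nos3, the endothelial nitric oxide synthase gene, had -0.94 ± 0.25 (limma adjusted p = 0.0167). Ptprb had -0.81 ± 0.25 (limma adjusted p = 0.029) and Ramp2 -0.76 ± 0.26 (limma adjusted p = 0.042). Nos3 was at 6.54 to 7.38 in the K8 tumors, against 8.36 to 8.62 in Lgr5 tumors 2, 6, 7, 8 and 9 and 6.82 to 7.45 in the other Lgr5 tumors. The Lgr5 tumors outside those 5 overlapped the K8 tumors, and without the 5 arrays 0 of the 25 passed, where 0% of all genes did.

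Among the regulators of endothelial genes, 5 of 21 rose and 2 fell in the K8 line, and 5 rose and 0 fell in the Lgr5 line. The ETS factor gene Ets1 rose by 0.75 ± 0.18 in the K8 line (limma adjusted p = 0.0195) and by 0.55 ± 0.16 in the Lgr5 line (limma adjusted p = 0.0236). The ETS factor genes Erg and Fli1 rose in the Lgr5 line by 0.71 ± 0.19 (limma adjusted p = 0.0189) and 0.73 ± 0.19 (limma adjusted p = 0.0187). Gata2, a factor also of blood progenitors, fell by 2.81 ± 0.76 on the log2 scale in the K8 line (limma adjusted p = 0.0276). It was at 6.74 to 7.39 in the K8 tumors apart from number 9, which had 10.04, against 9.94 and 10.23 in the K8 glands, so that K8 tumor 9 sat with the glands.

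In K8 tumors against K8 glands 2 of 8 other genes of the VEGF family rose and 0 fell, where 3.42% of all genes rose: the co-receptor gene Nrp1 with 0.98 ± 0.28 (limma adjusted p = 0.0343) and the ligand gene Vegfc with 0.75 ± 0.22 (limma adjusted p = 0.0388). Vegfa, the main ligand of KDR and FLT1, was at 8.39 to 9.80 in the K8 tumors but number 9, which had 10.56, against 10.46 and 10.86 in the K8 glands. Its difference of -1.30 ± 0.45 did not pass (limma adjusted p = 0.0713). K8 tumor 9 was thus the highest K8 tumor for Vegfa and the lowest for Kdr. Without K8 tumor 9 the VEGF family count was 3 higher and 1 lower, where 6.97% of all genes rose and 10% fell.

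In Lgr5 tumors against Lgr5 glands Nrp1 rose by 1.29 ± 0.24 (limma adjusted p = 0.00623) and the ligand gene Vegfd by 1.87 ± 0.44 (limma adjusted p = 0.0127), again 2 of 8 with 0 lower, where 5.28% of all genes rose. Between the tumor groups Pgf, which encodes placental growth factor, a ligand of FLT1 but not of KDR, rose in K8 tumors by 1.53 ± 0.46 (limma adjusted p = 0.0257). Vegfd, Vegfb, another ligand of FLT1, and Nrp1 fell, by 1.25 ± 0.30, 1.02 ± 0.31 and 0.73 ± 0.16 on the log2 scale (limma adjusted p = 0.0141, 0.026 and 0.0124). Pgf was at 9.10 to 10.86 in the K8 tumors, against 7.00 to 7.56 in Lgr5 tumors 2, 6, 7, 8 and 9 and 8.74 to 11.06 in the other Lgr5 tumors. Vegfb was at 8.63 to 9.96 in the K8 tumors, against 10.83 to 11.13 in those 5 and 8.87 to 9.59 in the others. Without those 5 arrays 0 of the 8 passed between the tumor groups, where 0% of all genes did.

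Of 5 angiopoietin genes 1 rose in each line. Angpt1, which encodes the activating ligand of TEK, rose in the K8 line by 1.46 ± 0.36 (limma adjusted p = 0.02), at 8.28 to 8.80 in the K8 tumors apart from number 9, which had 7.48, against 6.57 and 7.50 in the K8 glands. Among Lgr5 arrays Angpt1 differed by 0.40 ± 0.31 (limma adjusted p = 0.393), with Lgr5 gland 2 at 9.02. Angpt2, whose product can oppose that of Angpt1, differed by 0.74 ± 0.41 in the K8 line and 0.37 ± 0.35 in the Lgr5 line and passed in neither (limma adjusted p = 0.278 and 0.51). The related gene Angptl4, a lipase inhibitor of fat tissue, rose in the Lgr5 line by 1.60 ± 0.47 (limma adjusted p = 0.0281), at 11.28 to 11.52 in the adipocyte-high tumors and 8.85 to 10.40 in the other Lgr5 tumors, against 8.83 to 9.07 in the Lgr5 glands.

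**Figure D4:**
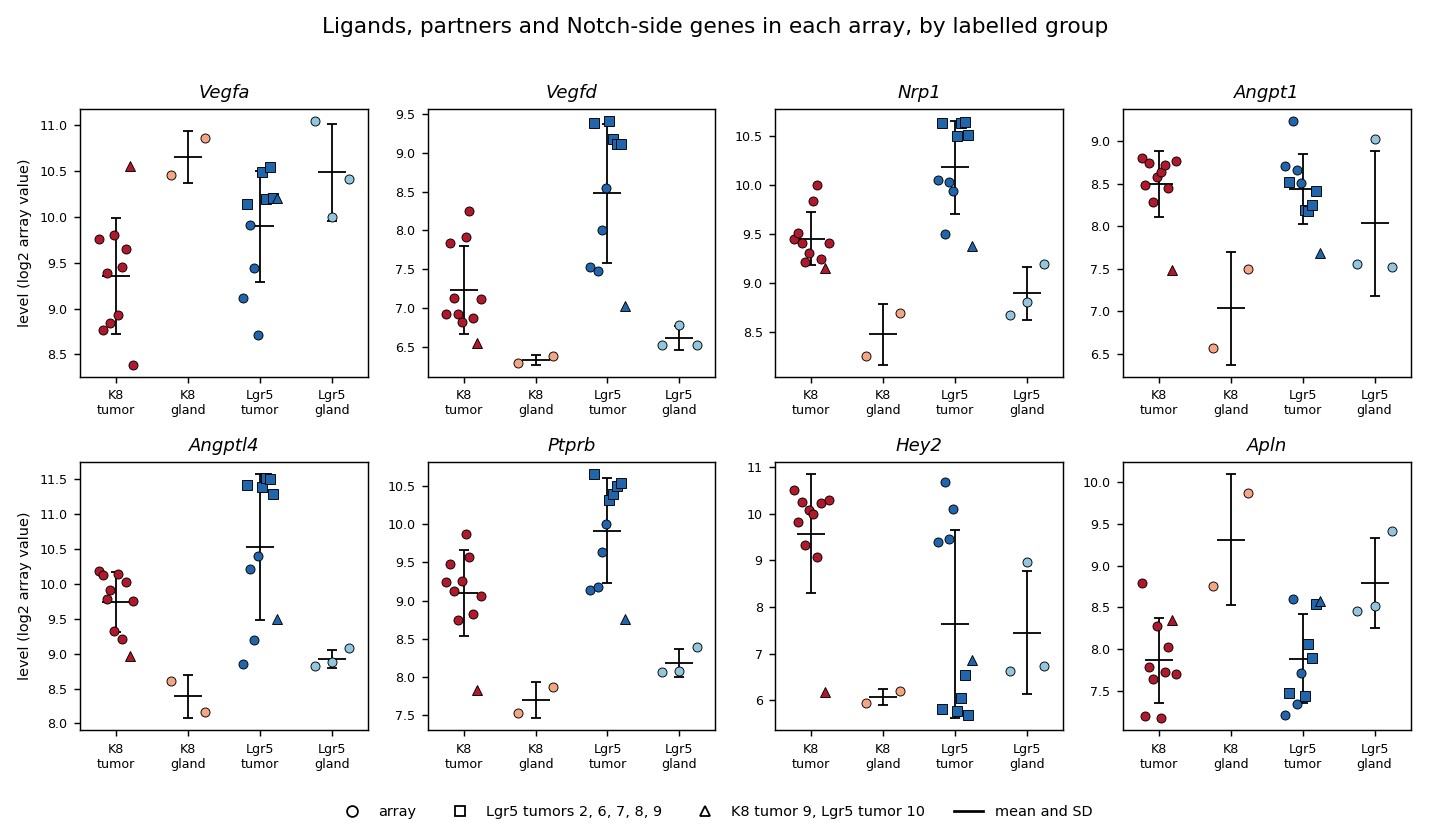
Log2 signal (vertical axes, a separate scale for each gene) of ligands, partners and Notch-side genes of endothelium in each of the 25 arrays, by labelled group, with the group mean and its SD. Vegfa in K8 tumor 9 (10.56) sits with the K8 glands (10.46 and 10.86), and the adipocyte-high Lgr5 tumors have high Vegfd and Angptl4 and low Hey2.

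Genes of tip cells and arterial Notch signalling were called in both directions in the K8 line, where 3.42% of all genes rose and 5.69% fell. In the K8 line 1 of 15 rose (the Notch ligand gene Jag1, 0.89 ± 0.22, limma adjusted p = 0.0206) and 1 fell (Apln, the tip cell peptide apelin, -1.44 ± 0.40, limma adjusted p = 0.0305), and in the Lgr5 line 0 passed (limma), 5 of them with an unadjusted p under 0.05. Between the tumor groups 3 of the 15 (Cxcr4, Ephb4 and Notch1) rose in K8 tumors, and 0 fell. This 20% called was near the 21.3% of all genes called in either direction, and 12.3% of all genes rose. Hey2, a Notch target, was at 9.07 to 10.51 in the K8 tumors apart from number 9, which had 6.17, against 5.69 to 6.54 in the adipocyte-high Lgr5 tumors and 6.87 to 10.68 in the other Lgr5 tumors; it did not pass (1.94 ± 0.70, limma adjusted p = 0.0514). Without K8 tumor 9 the K8 count was 6 higher and 2 lower, where 6.97% of all genes rose and 10% fell. Several of these genes are also expressed in epithelium.

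Partners of endoglin in TGF-beta family signalling gave 2 higher of 10 in the K8 line and 3 higher and 1 lower in the Lgr5 line. Tgfbr2, the TGF-beta type II receptor gene, rose by 0.89 ± 0.20 in the K8 line (limma adjusted p = 0.0148) and 0.49 ± 0.17 in the Lgr5 line (limma adjusted p = 0.0496), and the target gene Id3 by 1.11 ± 0.32 and 1.05 ± 0.27 (limma adjusted p = 0.0336 and 0.0175). Of 6 lymphatic genes 1 rose in the K8 line, namely Reln, and 0 in the Lgr5 line (limma), where 1 had an unadjusted p under 0.05. Between the tumor groups 1 of the 6 was higher and 1 lower in K8 tumors, where 12.3% of all genes were higher and 9% lower. The median difference of the 6 was 0.15. Reln was higher in K8 tumors by 1.31 ± 0.43 (limma adjusted p = 0.0352). Lyve1, a hyaluronan receptor of lymphatic vessels and macrophages, was lower there by 1.37 ± 0.36 on the log2 scale (limma adjusted p = 0.0162).

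Cells that could add to or move with the endothelial signal were followed by their own markers. Of 11 genes of pericytes and vascular smooth muscle, 0 passed in the K8 line (limma; 2 with an unadjusted p under 0.05) and 3 rose in the Lgr5 line: Cspg4, Pdgfrb and Rgs5, the last by 0.80 ± 0.26 (limma adjusted p = 0.0405). Of 8 platelet genes, measured because platelets share Vwf and Pecam1, only the chemokine gene Pf4, which macrophages can also express, rose, by 1.69 ± 0.35 in the K8 line and 1.36 ± 0.30 in the Lgr5 line (limma adjusted p = 0.0123 and 0.0104). The platelet integrin gene Itga2b stayed at 6.29 to 6.81 in K8 tumors and 6.51 to 7.00 in Lgr5 tumors, against at most 6.45 in K8 glands and 6.42 to 6.65 in Lgr5 glands. Of 9 leukocyte genes 0 passed in the K8 line (limma; 2 with an unadjusted p under 0.05) and 1 (Lcp1, -0.62 ± 0.21, limma adjusted p = 0.0446) fell in the Lgr5 line.

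Fibroblast and matrix genes, like the endothelial genes, rose in arrays labelled tumor against those labelled gland. Whether the 2 sets varied together from tumor to tumor was not tested. Of 15, 7 rose in the K8 line (median difference 1.28) and 11 in the Lgr5 line (median 1.23), and their mean was 9.69 to 10.69 in the K8 tumors apart from number 9, which had 9.17, against 8.66 and 9.07 in the K8 glands. Adipocyte genes rose in the Lgr5 line, 16 of 17, and 0 of 17 passed in the K8 line (limma), 2 of them with an unadjusted p under 0.05. Without the 5 adipocyte-high arrays 0% of all genes rose in the Lgr5 line, so no adipocyte or fibroblast gene did. Without K8 gland 1 or K8 gland 2, 0.01% and 0.0552% of all genes rose in the K8 line. Squamous genes fell, 16 of 21 in the K8 line and 18 of 21 in the Lgr5 line, and of 16 epithelial genes 1 (Ovol1) fell in the K8 line and 5 in the Lgr5 line. Cell cycle genes fell in the Lgr5 line, 13 of 15 (median -1.32), and 1 of 15 in the K8 line (median -0.74). All 15 were higher in K8 tumors than in Lgr5 tumors (median 1.14), where 12.3% of all genes were. Without the 5 adipocyte-high arrays 0% of all genes were higher in K8 tumors, so no cell cycle gene was. In the Lgr5 line 0.00502% of all genes then fell.

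The adipocyte mean was also put into the fit as a covariate. In the Lgr5 line the median difference of the 10 endothelial genes was then 0.51, with a range of 0.14 to 0.70, against 0.96 without the covariate. Tek, at 1.54 without it, was at 0.32 with it. In that fit 0 of the 10 passed in the Lgr5 line (limma; Eng and Vwf had an unadjusted p under 0.05), where 0% of all genes rose. In the K8 line the median was 0.89, with a range of -0.10 to 1.34, against 1.04 without the covariate, and 3 of the 10 rose, where 6.52% of all genes did. The part of the fibroblast, squamous, epithelial and cell cycle lists in these values was not tested.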

How the data were processed

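Total RNA was extracted with Trizol, amplified from 100 ng of input, biotin-labelled and put on 25 Affymetrix arrays, per the labels' protocols. The deposited values are log2 signals of 34760 probe sets, by their range of 4.13 to 13.9, since the base is not stated. The authors used the affy package, per the submitters' processing notes; no version, background correction, summarization or genome build is given in the sources used here. No scanner file was used.

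Of the probe sets, 21640 had 1 gene symbol in the platform annotation, 1321 had several and 11799 were unlisted; 21553 matched the GRCm38.p6 gene table, with 0 symbols changed. Where a symbol had several probe sets (954 symbols) that of the highest mean over the arrays was kept, giving 19937 genes. No arrays were identical (highest correlation 0.995).

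Groups came from the titles. The test was limma 3.58.1 in R 4.3.3: lmFit on 4 group means over all 25 arrays, eBayes, and Benjamini-Hochberg adjustment over all genes at 0.05. Errors beside differences are SEs of this fit, which was tested on simulated data. The number of arrays limits the precision. The replicate numbers are not known to pair the samples. Deviations of same-numbered tumors of the lines correlated by -0.15 to 0.51, and 1 of 10 correlated best with its own number. Tissue makeup also enters these deviations, so they cannot settle whether samples were paired.

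The members, gene lists and alternatives were chosen with earlier results of these data known, so no list is independent evidence. Genes of other lists are named among the 4 with the smallest adjusted p in a contrast, and genes like the members among the 10 with the highest correlation; Vegfa, Angpt2, Angpt1, Hey2 and Itga2b are given further values chosen after they were seen. Several genes stand in more than 1 list or are also expressed in other tissues. Promoters came from RefSeq. Figures were drawn with matplotlib 3.10.9.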

Additional observations from a re-analysis of the deposited data

Results flagged for a closer look

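K8 tumor 9 stood below the other 9 K8 tumors by more than their spread would usually leave for 6 of the 10 genes and for their mean. The gap to the nearest K8 tumor, as a share of the whole range, was above the 0.466 that Dixon's test allows in groups of 10. It had 7.07 for Tie1, 8.17 for Pecam1, 9.50 for Cdh5, 6.99 for Kdr, 8.98 for Emcn and 9.01 for Eng, and the mean of the 10 genes was 8.11. Lgr5 tumor 10 stood below the other Lgr5 tumors in the same way for Vwf, with 7.60, and for Eng, with 9.90. Chance flags about 1 in 20 groups, and these genes vary together, so the flags of an array are not independent. Both arrays had squamous means, 9.65 and 9.84, within the range of the arrays labelled gland.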

How the results depend on the processing

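The number of the 10 genes called moved with the setting. In the K8 line (3 called) it was 9 with array weights (13.9% of all genes rose), 7 among genes above the median gene (7.23% of those genes rose), 5 without Lgr5 tumors 2, 6, 7, 8 and 9 (4.73%), 9 on dropping K8 tumor 9 together with Lgr5 tumor 10 (8.09% of all genes rose), and 9 with all 7 arrays left out (11.4%); leaving out single arrays gave 0 to 9. In the Lgr5 line (8 called) it was 2 with the replicate block (2.73% rose), 0 with the adipocyte mean as covariate (0%) and 0 without the 5 adipocyte-high tumors (0%); leaving out single arrays gave 1 to 9. Between the tumor groups (0 called) it was 5 with array weights (17.7% fell), 1 among genes above the median gene (14.8%) and 3 on dropping K8 tumor 9 together with Lgr5 tumor 10 (12.2% of all genes fell); leaving out single arrays gave 0 to 3. The replicate block gave 2 in the K8 line (3.14% rose) and 0 between tumors, and the numbers are not known to pair samples. The count of genes above the glands in every K8 tumor was 9 without K8 tumor 9, against 1 with it. Some differences between K8 and Lgr5 tumors reversed: with the adipocyte covariate Tek 0.24, Tie1 0.16, Pecam1 0.042, Cdh5 0.089, Kdr 0.20, Eng 0.028 and Esam 0.10; without the 5 adipocyte-high tumors Tie1 0.12, Cdh5 0.054 and Kdr 0.10; without all 7 arrays Tek 0.020, Tie1 0.14, Cdh5 0.12, Kdr 0.10 and Esam 0.029; Tie1 0.0097 with array weights, 0.042 on dropping K8 tumor 9 together with Lgr5 tumor 10, and -0.091 to 0.10 leaving out single arrays. Flt1 in the K8 line was 0.0054 with quantile normalization and -0.0927 to 0.0531 leaving out single arrays. Over the 3 comparisons with tumors, 270 values kept direction and side of the threshold under the other settings and 675 without single arrays; the cause of the rest was not tested. With 2 K8 glands and 3 Lgr5 glands, each gland decides many calls. Signal over background was not used here.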
